A study of Mus musculus with 24 samples.

Results

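The DNA replication genes are 41 genes whose products license origins, open the double helix, copy it, supply the nucleotides and reassemble chromatin behind the fork. They were taken as the features of the deposited counts whose Ensembl mouse identifier carries one of 41 chosen symbols, which makes 41 of 126602 counted features, 46603 of which are annotated genes and 79999 loci that the authors assembled from the reads. All 41 passed a filter of at least 10 normalized counts on average, as did 46949 features in all. Mouse retinal organoids (MROs) are retinal tissue grown in culture from embryonic stem cells, here of the wildtype line E14Tg2a. All 24 MROs carried the label Control, received only the solvent water, had been cut by hand into smaller pieces earlier in culture (the trisection protocol) and had been exposed to the synthetic retinoid EC23 before sampling. The groups differ in culture time: 6 individual MROs were lysed on day 20 of differentiation (D20), 6 on D22, 6 on D25 and 6 on D30, with 1 library per MRO, all from 1 independent experiment, so that p-values measure the spread between MROs of that experiment. The sample titles of D22, D25 and D30 carry Ctrl and those of D20 do not, and what this difference stands for is not stated. The libraries were made from whole organoids as strand-specific, rRNA-depleted total RNA.

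The D20 libraries held between 13634846 and 15793703 counted reads, and the later ones from 13942695 to 15789570 at D22, from 14524620 to 18078956 at D25 and from 15814895 to 19477108 at D30, so that the ranges of D20 and D22 nearly coincided and those of D25 and D30 reached higher. Levels are given as normalized CPM (counts of a gene scaled by library size and by the TMM factor of the library). Scaled by library size alone, without the TMM factor, 3 counts correspond to 0.154 to 0.22 CPM depending on the library, a floor that covers counting error only. The 41 genes together took 0.0613% to 0.114% of the counted reads of an MRO, or 8924 to 18065 counts. Markers of the labelled tissue were measured in the same libraries: the 13 retinal progenitor markers and the 10 photoreceptor markers that were looked up all passed the filter.

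As background, a cell copies its genome once per cycle. The origin recognition complex, Cdc6 and Cdt1 load the MCM2-7 helicase onto origins before S phase. Cdc45 and the GINS proteins then switch the helicase on, DNA polymerases copy both strands behind it with the sliding clamp Pcna holding them in place, and the fragments of the lagging strand are joined. Many of the genes are transcribed under E2F factors as cells enter S phase. In the developing retina, dividing progenitors leave the cycle to become neurons and Müller glia, and mature rods do not divide.

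The summed level of the replication genes was lower in every D22 MRO than in any D20 MRO, and the medians at D25 and D30 were close to that at D22. Summed over the 41 genes, the lowest, median and highest of the 6 MROs were 865, 1008 and 1157 summed normalized CPM at D20, 668, 758 and 854 at D22, 622, 782 and 1009 at D25 and 642, 721 and 869 at D30. D25 and D30 overlapped with D22, and 1 D25 MRO (replicate 3) and 1 D30 MRO (replicate 1) reached into the D20 range. The sums include Rpa1, whose median rose from 27.4 normalized CPM at D22 to 60.6 at D30, and a sum without it was not taken. In RNA from whole organoids, fewer cycling cells and less RNA per cycling cell cannot be told apart.

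The first question was how the genes changed over the 2 days from D20 to D22. Of the 41 genes, 4 were called at an adjusted p below 0.01 in edgeR's quasi-likelihood test, against 1.90% of the 46949 features tested and 3.32% of the 16253 annotated genes among them. All 4 were lower (Mcm2, Mcm3, Mcm6 and Cdc45), where 0.285% of features and 0.763% of annotated genes were called lower. The estimates leaned the same way in most of the list, with 40 of 41 below 0, beside 58.2% of annotated genes. The median log2 fold change was -0.47, beside 0.02 over all tested features and -0.06 over the annotated genes. The 4 calls became 2 when D20 replicate 1, 2, 3 or 6, or D22 replicate 1, 3 or 4, was left out. They became 6 with DESeq2, which added Prim1 and Fen1, beside 3.42% of features called in that setting. With the compared timepoints alone they also became 6, which added Mcm7 and Prim1, beside 1.78% of features.

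The step from D22 to D25 gave 1 call. Rpa1, which was higher at D25, was the gene called of 41 (2.44%), against 5.28% of all features and 10.2% of annotated genes, or 3.08% and 7.33% called higher. No member was called lower, where 2.19% of features and 2.92% of annotated genes were, also with DESeq2, and 4 members had an unadjusted p below 0.05. The share of all features below that unadjusted value was not counted, here or below. The median log2 fold change was 0.08, beside -0.05 over all features and 0.10 over annotated genes, and it was -0.00 when annotated genes alone were normalized and tested, where Mcm7 was called lower as well. It was 0.13 without D22 replicate 5 or without D25 replicate 5, and 0.05 without D25 replicate 3. From D25 to D30, 2 of 41 genes (4.88%) were called, against 3.51% of features and 7.38% of annotated genes. Mcm7 was lower, where 1.75% of features and 2.83% of annotated genes were called lower, and Rpa1 was higher, where 1.76% and 4.55% were, with a median over the list of -0.27 beside -0.02 over all features. That median was -0.11 without D25 replicate 3 and -0.18 without D30 replicate 3. The 2 calls became 1, with Rpa1 lost, when D25 replicate 1, 2, 5 or 6, or D30 replicate 1 or 5, was left out. The same held without a filter, with filterByExpr, with the replicate block and with the compared timepoints alone.

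Across the 8 days after D22, D30 against D22 gave 3 calls among the 41 genes, which is below the 21.5% of all features and the 35.5% of annotated genes called. Mcm7 and Lig1 were lower, where 10.5% of features and 11.55% of annotated genes were called lower, and Rpa1 was higher, where 5149 of 46949 features and 23.95% of annotated genes were. The median was -0.15, beside -0.09 over all features and 0.14 over annotated genes, and it was -0.07 with DESeq2, with its size factors in edgeR or without D22 replicate 5, and -0.10 without D30 replicate 3. With annotated genes alone, which changed both the scaling and the set of features tested, the median of annotated genes was -0.00 in place of 0.14, and the list stood at -0.28. In that setting 7 of the 41 replication genes were called, 6 lower and 1 higher, beside 37.97% of its 16253 features. Relative to the annotated genes the list stood at -0.28 with either scaling.

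Over the whole interval, D30 against D20, 20 of the 41 genes were called, against 26.8% of all tested features and 41.8% of the annotated ones. Of these, 19 were lower, where 13.0% of all features and 16.7% of annotated genes were called lower, and 1, Rpa1, was higher, where 13.9% and 25.1% were. The estimates of 38 of 41 were below 0, beside 44.2% of annotated genes, with a range from -1.48 to 1.17 and a median of -0.62, beside -0.04 over all features and 0.10 over annotated genes, which puts the list at -0.72 relative to the latter. With annotated genes alone, 27 were called, 26 of them lower, beside 44.98% of the 16253 features tested in that setting called in either direction.

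Whether the change up to D22 differed from the change after D22 was tested as a contrast of its own, the D22 minus D20 change less the D30 minus D22 change. Here and for all log2 fold changes of single genes, ± gives the standard error of the fit, with 6 MROs per timepoint. Rpa1 passed (-1.25 ± 0.20, adjusted p = 1.23e-04), being the 1 gene called of 41, against 5.16% of features and 9.20% of annotated genes called, or 2.27% and 6.08% called with a negative difference. Orc6 (-0.78 ± 0.22, adjusted p = 0.0191), Mcm2 (-1.02 ± 0.35, adjusted p = 0.0516) and Gins3 (-1.01 ± 0.36, adjusted p = 0.0650) came next and did not pass, nor did Mcm6 (-0.94 ± 0.40, adjusted p = 0.135) or Pcna (-0.15 ± 0.22, adjusted p = 0.733, from -0.29 to 0.04 over the alternatives). With DESeq2 Orc6 passed too, and with annotated genes alone Mcm7 did, with a positive difference. For the 4 genes that were lower at D22, the change up to D22 was therefore not shown to differ from the change after it.

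**Figure D1:**
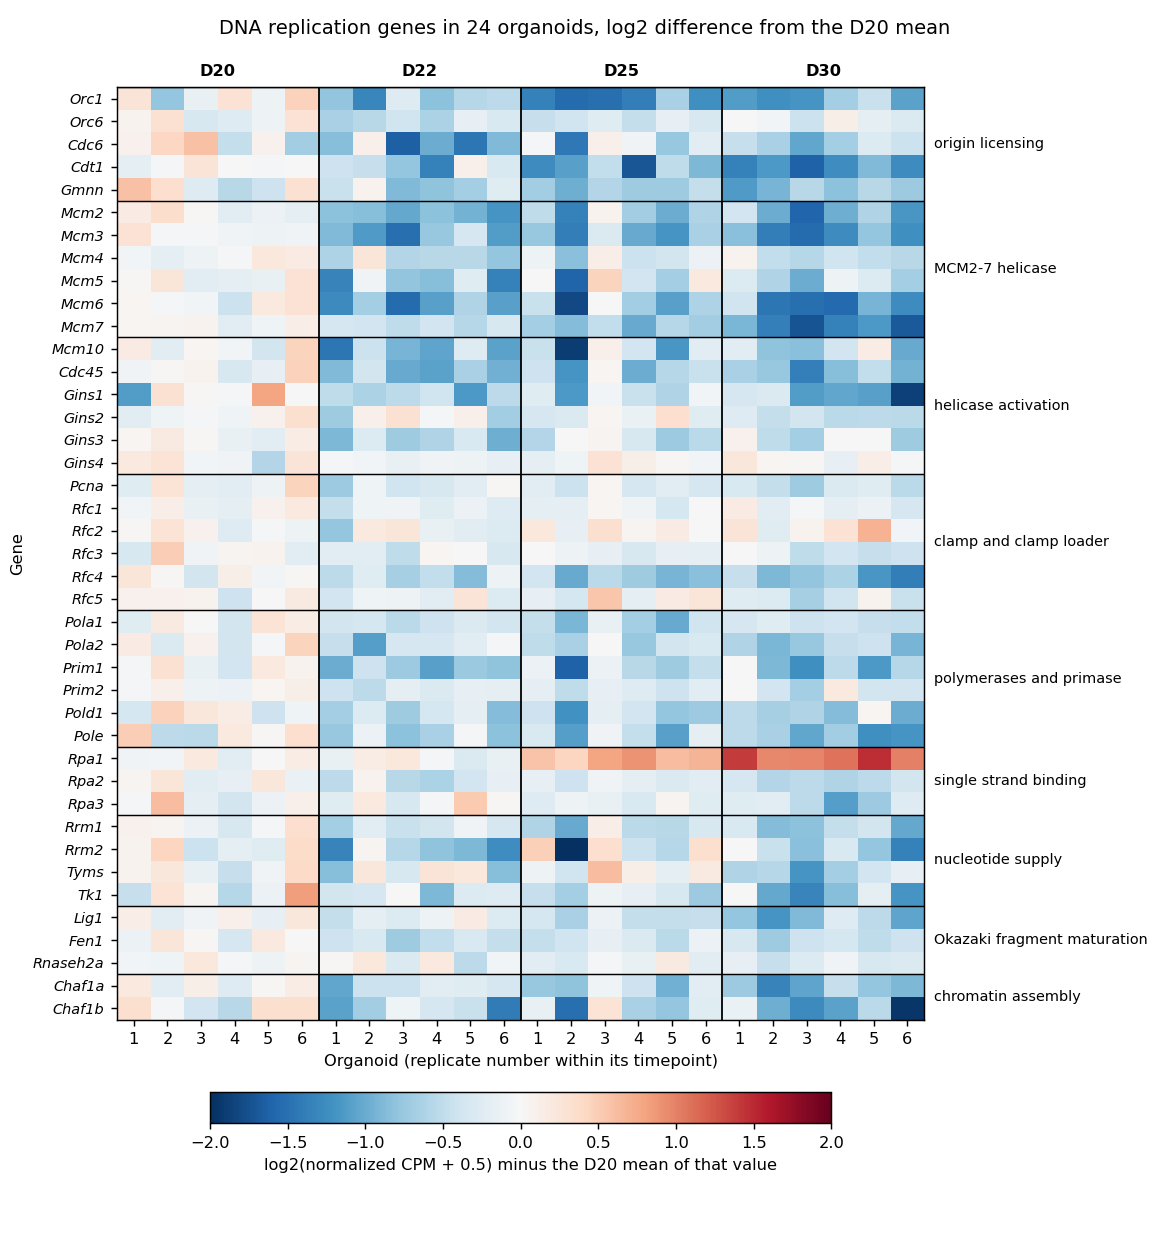
Heat map of the 41 DNA replication genes (rows, by role) in 24 MROs (columns, 6 per timepoint), coloured by log2(normalized CPM + 0.5) minus the D20 mean of that value, with differences beyond 2 drawn at the end of the scale. Most rows turn blue from D22 on, Rpa1 turns red at D25 and D30, and among the D25 columns replicate 2 is the bluest and replicate 3 the least blue.

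Origin licensing is the step that marks where copying may start, and 5 members take part in it. At D30 against D20, 3 of these 5 were lower. Counts by role, here and below, stand beside 16.7% of annotated genes called lower at D30 against D20 and 0.763% at D22 against D20. Cdt1, which loads the MCM ring with Cdc6, had lowest, median and highest levels of 3.85, 4.36 and 5.37 normalized CPM at D20, 1.44, 3.13 and 4.75 at D22, 0.996, 1.97 and 2.99 at D25 and 1.10, 1.57 and 2.15 at D30. Its D20 values lay above all at D25 and D30, and the D22 values overlapped with every other timepoint. The log2 fold change of D30 against D20 was -1.48 ± 0.28, adjusted p = 9.11e-05, and that of D30 against D22 was -0.94 ± 0.28, adjusted p = 0.0106, which missed the threshold. A call against D22 was gained when D22 replicate 3 or 4 or D25 replicate 4 or D30 replicate 5 was left out, and also with annotated genes alone, with adjusted p between 0.00202 and 0.0470 over the 31 alternatives tried.

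Gmnn encodes geminin, the inhibitor of Cdt1. Its lowest, median and highest levels were 9.96, 15.4 and 22.5 normalized CPM at D20 and 6.51, 8.47 and 9.92 at D30. The groups did not overlap, and the log2 fold change was -0.88 ± 0.20, adjusted p = 6.51e-04. Orc1, a subunit of the origin recognition complex, was among the least abundant members, with 0.940, 2.11 and 2.88 at D20 and 0.551, 0.647 and 1.31 at D30. Its groups overlapped, and the log2 fold change was -1.36 ± 0.39, adjusted p = 0.00609. The call was lost when D20 replicate 1, 4 or 6 or D30 replicate 1, 2, 3 or 6 was left out, and also without a filter, with adjusted p between 9.79e-04 and 0.0244 over the 31 alternatives tried. For D25 against D22 the log2 fold change of Orc1 was -0.92 ± 0.40, adjusted p = 0.147, which did not pass. The other 2, Cdc6 and Orc6, were not called in edgeR in any comparison. The D20, D22, D25 and D30 medians of Orc6 were 34.2, 24.7, 26.7 and 31.8 normalized CPM, its log2 fold change of D22 against D20 was -0.47 ± 0.13, adjusted p = 0.0259, and its D30 values lay within the D20 range except for 1 MRO.

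The MCM2-7 ring is the helicase that unwinds DNA ahead of the fork, and its 6 subunits are all members. At D22 against D20, 3 of the 6 were lower, and at D30 against D20, 4 of the 6. Mcm7 gave the smallest adjusted p of the 41 genes. Its levels were 71.5, 86.7 and 91.1 normalized CPM at D20, 56.0, 64.1 and 66.5 at D22, 41.1, 51.7 and 59.0 at D25 and 24.8, 32.1 and 44.1 at D30. The D20 values lay above all later ones, the D22 and D25 values overlapped, and the D30 values, with 1 exception, lay below all at D25. On the log2 scale the fold change was -1.36 ± 0.12, adjusted p = 1.33e-10 for D30 against D20, -0.94 ± 0.12, adjusted p = 2.80e-07 for D30 against D22 and -0.64 ± 0.12, adjusted p = 4.94e-04 for D30 against D25. At D25 against D22 it was -0.30 ± 0.12, adjusted p = 0.0988, which passed with annotated genes alone, and a call for D22 against D20 was gained with the compared timepoints alone. Of the exon bases of Mcm7, 12.6% lie within other annotated genes (Ap4m1, Cops6, Mir25 and Mir93), and 13.2% of its stretches of 75 bases, the read length, also occur in other genes, with Gm5487 sharing the most. How such reads were counted was not tested.

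Mcm3 had levels of 31.0, 32.3 and 41.2 normalized CPM at D20, 11.5, 16.6 and 26.5 at D22, 12.5, 18 and 27.4 at D25 and 11.2, 13.9 and 19.3 at D30. Its D20 values lay above those of all 18 later MROs. The log2 fold change was -0.93 ± 0.18, adjusted p = 0.00208 at D22 and -1.18 ± 0.18, adjusted p = 5.73e-06 at D30, both against D20. Mcm2 had 20.0, 22.5 and 29.9 at D20, 10.1, 12.2 and 13.0 at D22, 8.86, 14.7 and 24.5 at D25 and 7.47, 11.6 and 17.7 at D30, and 1 D25 MRO inside the D20 range. Its log2 fold change was -0.98 ± 0.20, adjusted p = 0.00250 at D22 and -0.94 ± 0.20, adjusted p = 2.76e-04 at D30.

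Mcm6, a gene the study names itself, had levels of 21.7, 29.8 and 36.1 normalized CPM at D20, 9.86, 13.7 and 19.3 at D22, 8.09, 18.5 and 29.3 at D25 and 9.70, 11.3 and 22.3 at D30. D22 lay below D20 without overlap, whereas 1 D25 MRO and 1 D30 MRO reached the D20 range. The log2 fold change was -1.05 ± 0.23, adjusted p = 0.00532 at D22 and -1.16 ± 0.23, adjusted p = 1.48e-04 at D30, both against D20. The call at D22 was lost when D20 replicate 1, 2, 3, 5 or 6 or D22 replicate 1, 3 or 4 was left out, with adjusted p between 3.64e-04 and 0.0221 over the 31 alternatives tried. Between the later timepoints its log2 fold change was 0.34 ± 0.23, adjusted p = 0.387 for D25 against D22, -0.45 ± 0.23, adjusted p = 0.298 for D30 against D25 and -0.11 ± 0.23, adjusted p = 0.759 for D30 against D22, where the estimate ran from -0.32 to 0.01 over the 31 alternatives. Mcm4 and Mcm5 were not called in any comparison. Their medians were 23.2 and 14.7 normalized CPM at D20 and 16.8 and 11.3 at D30. Per kilobase of exon, the D20 mean was 18.9 normalized CPM for Mcm7, 8.96 for Mcm3, 6.70 for Mcm4, 6.40 for Mcm6, 3.90 for Mcm5 and 3.39 for Mcm2. This order depends on the annotated exon bases, 6956 for Mcm2 and 3589 to 4666 for the other subunits. Without that division, the D20 mean was 23.6 normalized CPM for Mcm2 and 15.6 for Mcm5. At D30 the mean per kilobase was 7.38 for Mcm7, 5.06 for Mcm4, 3.97 for Mcm3, 2.86 for Mcm6, 2.79 for Mcm5 and 1.77 for Mcm2.

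**Figure D2:**
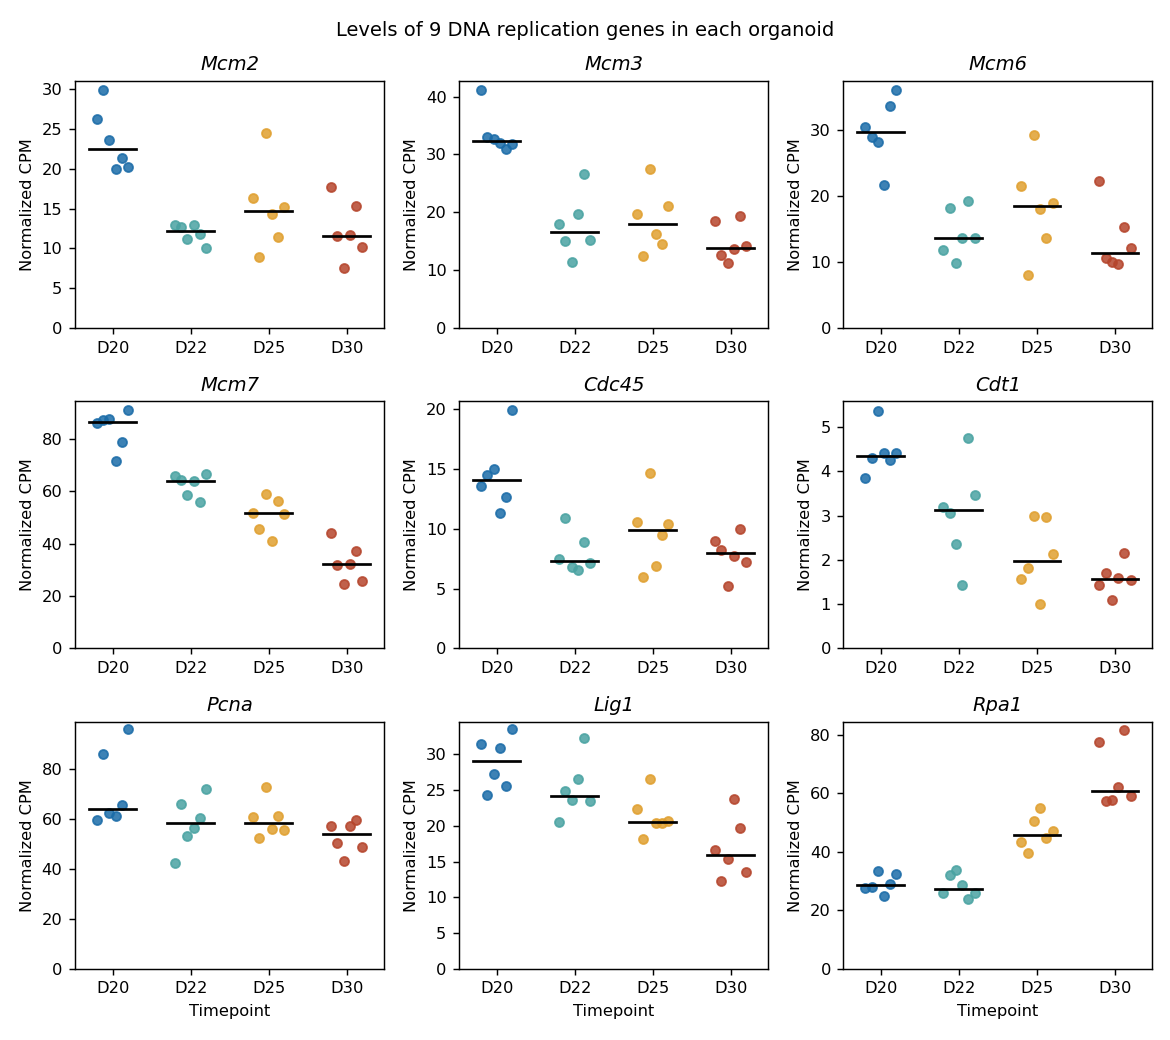
Normalized CPM of 9 replication genes in each MRO (points, 6 per timepoint, with a line at the median). Mcm7 has its lowest median at D30, Mcm3, Mcm2 and Mcm6 have lower medians at D22, D25 and D30 than at D20, and every D30 point of Rpa1 is above its D25 points.

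The promoters of the 41 genes were read for 3 motifs on both strands, in windows from 250 bases before to 50 bases after each start (RefSeq, build GRCm38.p6). The motifs were the E2F motif (TTTGGCGC, TTTCCCGC, TTTCGCGC or TTTGCCGC), CCAAT and TTTGAA, none of which contains another. Entries existed for 33 of the 41 genes, 37 windows in all, and Gins1, Gins2, Gins4, Gmnn, Mcm4, Pole, Prim2 and Rfc2 had none. The E2F motif stood in 12 of 37 windows (32.4%), beside 744 of 32851 windows of all genes (2.26%) and 540 of 14008 of tested genes (3.85%). CCAAT stood in 23 of 37 (62.2%), beside 37.4% of all and 37.8% of tested windows, and TTTGAA in 4 of 37 (10.8%), beside 17.9% and 11.6%. Windows of 28 mitosis genes, looked at for comparison, gave other shares: 1 of 26 held the E2F motif, 21 of 26 CCAAT and 20 of 26 TTTGAA. The match is one of letters and does not say that a factor binds. Only the 4 E2F sequences given were searched, so a window without them is not shown to lack other E2F sites. Of the 12 genes with the E2F motif, Cdc6, Gins3, Mcm5, Pold1 and Rfc3 were not called at D30 against D20. Of the 21 genes with an entry and without the motif, Cdc45, Chaf1a, Fen1, Mcm2, Pcna, Pola2, Rfc4, Rpa2 and Rrm1 were called lower. Shown are the 5 genes with the smallest adjusted p at D30 against D20 among those with the E2F motif, namely Mcm7 (chr5:138171834-138172133, minus strand, the 1 of 2 starts with the motif), Mcm3 (chr1:20820263-20820562, minus strand), Lig1 (chr7:13278576-13278875, plus strand, the 1 of 3 starts with the motif), Cdt1 (chr8:122567765-122568064, plus strand) and Mcm6 (chr1:128359656-128359955, minus strand). Orc6 (chr8:85299382-85299681, plus strand) had the largest adjusted p among the genes with an entry and without the motif, and Rpa1 (chr11:75348334-75348633, minus strand), the gene that rose and also without it, was added after its values were seen. Capitals mark the E2F motif. Counted from 0 at the RefSeq start that each window was cut around, it starts at -165 and 16 in Mcm7, at 19 and 38 in Mcm3, at -110, -106 and -47 in Mcm6, at 32 in Cdt1 and at 26 in Lig1, and the first pair in Mcm6 overlaps.
Mcm7: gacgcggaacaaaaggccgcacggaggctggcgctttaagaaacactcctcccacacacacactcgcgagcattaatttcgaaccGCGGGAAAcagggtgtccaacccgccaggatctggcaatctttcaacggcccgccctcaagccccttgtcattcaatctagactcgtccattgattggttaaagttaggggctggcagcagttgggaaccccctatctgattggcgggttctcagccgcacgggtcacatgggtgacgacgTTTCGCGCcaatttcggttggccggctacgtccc
Mcm3: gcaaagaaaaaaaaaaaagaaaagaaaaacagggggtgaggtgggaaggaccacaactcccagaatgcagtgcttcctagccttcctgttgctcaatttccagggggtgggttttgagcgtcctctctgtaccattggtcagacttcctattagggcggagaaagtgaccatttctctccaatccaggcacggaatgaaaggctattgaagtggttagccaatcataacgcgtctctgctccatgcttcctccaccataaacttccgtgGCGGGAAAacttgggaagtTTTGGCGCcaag
Mcm6: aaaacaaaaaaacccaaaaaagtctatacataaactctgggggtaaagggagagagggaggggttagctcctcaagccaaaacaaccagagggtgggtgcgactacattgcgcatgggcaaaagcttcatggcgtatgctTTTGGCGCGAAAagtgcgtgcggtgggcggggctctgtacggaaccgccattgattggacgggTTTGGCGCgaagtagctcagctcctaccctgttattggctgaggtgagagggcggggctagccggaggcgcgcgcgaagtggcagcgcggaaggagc
Cdt1: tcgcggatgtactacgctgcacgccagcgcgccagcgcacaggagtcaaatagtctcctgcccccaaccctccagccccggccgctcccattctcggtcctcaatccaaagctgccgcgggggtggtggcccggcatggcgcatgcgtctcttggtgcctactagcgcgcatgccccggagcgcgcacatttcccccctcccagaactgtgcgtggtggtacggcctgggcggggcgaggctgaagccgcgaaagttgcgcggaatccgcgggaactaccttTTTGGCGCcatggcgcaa
Lig1: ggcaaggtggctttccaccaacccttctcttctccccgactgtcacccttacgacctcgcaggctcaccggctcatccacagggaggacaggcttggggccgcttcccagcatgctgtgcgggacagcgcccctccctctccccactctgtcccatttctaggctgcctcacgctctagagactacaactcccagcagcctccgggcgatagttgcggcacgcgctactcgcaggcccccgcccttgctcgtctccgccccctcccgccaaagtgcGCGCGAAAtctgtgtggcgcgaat
Orc6: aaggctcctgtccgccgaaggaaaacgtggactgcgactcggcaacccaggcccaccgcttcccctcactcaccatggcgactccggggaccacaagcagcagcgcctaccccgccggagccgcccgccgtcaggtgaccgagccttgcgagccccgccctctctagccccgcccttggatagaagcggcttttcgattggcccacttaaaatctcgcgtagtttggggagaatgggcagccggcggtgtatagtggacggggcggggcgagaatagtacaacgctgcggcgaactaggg
Rpa1: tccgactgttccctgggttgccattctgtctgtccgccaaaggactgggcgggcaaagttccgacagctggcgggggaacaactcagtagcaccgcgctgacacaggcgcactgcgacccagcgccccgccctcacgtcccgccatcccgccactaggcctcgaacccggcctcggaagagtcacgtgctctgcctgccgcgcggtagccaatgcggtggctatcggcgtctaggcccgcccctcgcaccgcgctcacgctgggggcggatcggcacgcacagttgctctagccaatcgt

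Helicase activation turns the loaded ring into a moving one. Of its 6 members, 1 was lower at D22 and 2 were lower at D30, each against D20. Cdc45, a part of the active helicase, had levels of 11.3, 14.0 and 19.9 normalized CPM at D20, 6.56, 7.30 and 10.9 at D22, 6.00, 9.91 and 14.7 at D25 and 5.21, 7.98 and 9.99 at D30. D22 and D30 lay below D20 without overlap, and D25 overlapped with D20. The log2 fold change was -0.86 ± 0.20, adjusted p = 0.00872 at D22 and -0.88 ± 0.20, adjusted p = 7.22e-04 at D30. The call at D22 was lost when D20 replicate 1, 2, 3 or 6 or D22 replicate 1, 3, 4, 5 or 6 or D25 replicate 5 or 6 or D30 replicate 2 or 4 was left out, and also without a filter and with the replicate block, with adjusted p between 0.00113 and 0.0296 over the 31 alternatives tried. Gins1, a GINS subunit, had 2.59, 6.30 and 11.1 normalized CPM at D20 and 1.33, 2.71 and 5.02 at D30, with overlap, and its D30 against D20 log2 fold change was -1.07 ± 0.30, adjusted p = 0.00482. The call was lost when D20 replicate 2 or 5 or D30 replicate 3, 4, 5 or 6 was left out, and also with the replicate block and with the compared timepoints alone, with adjusted p between 8.71e-04 and 0.0240 over the 31 alternatives tried. The other GINS subunits Gins2, Gins3 and Gins4 and the activation factor Mcm10 were not called in any comparison, except that Gins2 passed at D30 against D20 with annotated genes alone. Gins4 had the estimate nearest to 0 of the 41 at D30 against D20, 0.01, and medians between 22.9 and 25.5 normalized CPM at the 4 timepoints. For Gins2, 67.3% of the exon bases lie within the gene Gse1 on the opposite strand, and how reads there were counted was not tested.

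The sliding clamp Pcna tethers polymerases to DNA, and the replication factor C subunits Rfc1 to Rfc5 load it. Of these 6, none was called at D22 against D20 in edgeR or DESeq2, where 3 had an unadjusted p below 0.05, and Pcna and Rfc4 were lower at D30 against D20. Pcna had levels of 59.6, 64.2 and 96.4 normalized CPM at D20, 42.5, 58.5 and 72.0 at D22, 52.4, 58.4 and 73.0 at D25 and 43.2, 54.0 and 59.7 at D30. All 4 timepoints overlapped, D20 and D30 by a single D30 MRO at 59.7. Its log2 fold change was -0.30 ± 0.13, adjusted p = 0.204 for D22 against D20, 0.03 ± 0.13, adjusted p = 0.913 for D25 against D22, -0.18 ± 0.13, adjusted p = 0.529 for D30 against D25, -0.15 ± 0.13, adjusted p = 0.423 for D30 against D22 and -0.45 ± 0.13, adjusted p = 0.00659 for D30 against D20. The estimate of D25 against D22 ran from -0.06 to 0.10 over the alternatives. The call at D30 against D20 was lost when D20 replicate 2 or 6 or D30 replicate 2, 3 or 6 was left out, and also with DESeq2, with DESeq2 size factors in edgeR, without a filter, with the replicate block and with the compared timepoints alone, with adjusted p between 3.66e-04 and 0.0320 over the 31 alternatives tried. Per kilobase of exon, Pcna had the highest D20 level of the 41 genes, 30.0 normalized CPM, and 13.9% of its 75-base stretches also occur in other genes, with the pseudogene Pcna-ps2 sharing the most.

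Rfc4 had 13.5, 17.9 and 20.7 normalized CPM at D20, 9.42, 12.2 and 16.2 at D22, 8.44, 10.02 and 13.4 at D25 and 6.43, 9.54 and 12.6 at D30. Its D20 values lay above all at D25 and D30, and the log2 fold change of D30 against D20 was -0.90 ± 0.17, adjusted p = 8.46e-05. With annotated genes alone, Rfc4 also passed at D30 against D22. Rfc1, Rfc2, Rfc3 and Rfc5 were not called in any comparison. Rfc2 was 1 of the 3 members with an estimate above 0 at D30 against D20, beside Gins4 and Rpa1. Rfc5 was among the next smallest adjusted p at D30 against D25, with -0.41 ± 0.17, adjusted p = 0.188.

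The polymerases and the primase make the new strands: the primase subunits Prim1 and Prim2 with Pola1 and Pola2 start them, and Pold1 and Pole extend them. At D22 against D20 none of these 6 was called in edgeR on all 24 MROs, although each had an unadjusted p below 0.05, and DESeq2 and edgeR on the compared timepoints alone called Prim1 lower. At D30 against D20, 3 were lower. Pole, the catalytic subunit of the leading strand polymerase, had 6.81, 11.03 and 14.5 normalized CPM at D20 and 4.05, 5.37 and 6.91 at D30, where 1 D30 value lay within the D20 range, and its D30 against D20 log2 fold change was -0.97 ± 0.23, adjusted p = 0.00134. Pola2 had 10.3, 13.7 and 18.4 at D20 and 6.82, 8.19 and 9.92 at D30, without overlap, and its D30 against D20 log2 fold change was -0.73 ± 0.18, adjusted p = 0.00211. Pola1, the catalytic subunit of polymerase alpha, had 56.0, 76.6 and 87.9 at D20 and 51.6, 55.0 and 61.2 at D30, with overlap, and its D30 against D20 log2 fold change was -0.41 ± 0.12, adjusted p = 0.00886. The call was lost when D20 replicate 2, 3, 5 or 6 or D22 replicate 1, 2, 4, 5 or 6 or D25 replicate 4 or D30 replicate 1, 3, 4, 5 or 6 was left out, and also with DESeq2, with DESeq2 size factors in edgeR, without a filter, with edgeR's filterByExpr, with the replicate block and with the compared timepoints alone, with adjusted p between 0.00143 and 0.0349 over the 31 alternatives tried. Prim1 missed the threshold at D22 (-0.83 ± 0.22, adjusted p = 0.0248) and at D30 (-0.71 ± 0.22, adjusted p = 0.0112), each against D20. A call at D30 against D20 was gained when D20 replicate 4 or D25 replicate 2 or D30 replicate 1 was left out, and also with annotated genes alone, with adjusted p between 0.00153 and 0.0346 over the 31 alternatives tried. Prim2 and Pold1 had estimates of -0.25 and -0.65 at D30 against D20 that did not pass, except with annotated genes alone and, for Pold1, without D30 replicate 5.

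Replication protein A (RPA) covers single-stranded DNA, and its 3 subunits did not move together. Rpa1, the largest subunit, rose, Rpa2 fell, and Rpa3 had a lower estimate that missed the threshold. Rpa1 had levels of 25.0, 28.6 and 33.3 normalized CPM at D20, 23.7, 27.4 and 33.8 at D22, 39.5, 45.8 and 54.8 at D25 and 57.3, 60.6 and 81.5 at D30. D20 and D22 overlapped, every D25 MRO was above them, and every D30 MRO was above every D25 MRO. Its log2 fold change was -0.04 ± 0.12, adjusted p = 0.906 for D22 against D20, 0.72 ± 0.12, adjusted p = 1.25e-04 for D25 against D22, 0.50 ± 0.11, adjusted p = 0.00496 for D30 against D25, 1.21 ± 0.12, adjusted p = 2.09e-09 for D30 against D22 and 1.17 ± 0.12, adjusted p = 1.73e-09 for D30 against D20. The call at D30 against D25 was lost when D25 replicate 1, 2, 5 or 6 or D30 replicate 1 or 5 was left out, and also without a filter, with edgeR's filterByExpr, with the replicate block and with the compared timepoints alone, with adjusted p between 4.31e-04 and 0.0277 over the 31 alternatives tried. Of its exon bases, 0.789% lie in another gene and no 75-base stretch is shared with one.

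Rpa2 had 11.6, 13.3 and 16.2 normalized CPM at D20 and 8.88, 9.36 and 10.7 at D30, without overlap, and its D30 against D20 log2 fold change was -0.52 ± 0.14, adjusted p = 0.00476. The call was lost when D20 replicate 2 or 5 or D30 replicate 2, 3 or 4 was left out, and also with DESeq2 size factors in edgeR, without a filter and with the compared timepoints alone, with adjusted p between 4.73e-04 and 0.0238 over the 31 alternatives tried. Rpa3 had 11.2, 13.9 and 22.8 at D20 and 6.54, 11.1 and 12.5 at D30, with overlap, and its log2 fold change at D30 was -0.53 ± 0.18, adjusted p = 0.0187 against D20 and -0.55 ± 0.18, adjusted p = 0.0183 against D22. Both passed with annotated genes alone. The balance of the 3 transcripts per kilobase of exon differed between the ends of the series. The D20 means were 5.24 normalized CPM per kilobase for Rpa1, 4.61 for Rpa2 and 13.2 for Rpa3, and the D30 means were 11.8, 3.22 and 9.11.

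Nucleotide supply had 4 members, of which Rrm1 was lower at D30 against D20. Rrm1, the large subunit of ribonucleotide reductase, had 100.3, 125 and 158 normalized CPM at D20 and 60.9, 80.0 and 101 at D30, with 1 D30 MRO in the D20 range, and its D30 against D20 log2 fold change was -0.63 ± 0.15, adjusted p = 9.80e-04. Rrm2, the small subunit, was not called, with 0.63 ± 0.30, adjusted p = 0.189 for D25 against D22 and D25 values from 4.53 to 30.3 normalized CPM. Tyms, which makes thymidylate, missed the threshold at D30 against D25 (-0.67 ± 0.22, adjusted p = 0.0683), and thymidine kinase Tk1 was not called in any comparison, except at D30 against D20 with annotated genes alone or without D30 replicate 1.

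Okazaki fragment maturation joins the pieces of the lagging strand. Of its 3 members, Lig1 and Fen1 were lower at D30 against D20. Lig1, the DNA ligase that seals the pieces, had levels of 24.3, 29.1 and 33.5 normalized CPM at D20, 20.5, 24.2 and 32.2 at D22, 18.1, 20.6 and 26.5 at D25 and 12.3, 16.0 and 23.8 at D30. D30 lay below D20 without overlap, and the D22 and D25 values overlapped with both. The log2 fold change was -0.77 ± 0.14, adjusted p = 7.23e-05 for D30 against D20, -0.58 ± 0.14, adjusted p = 0.00233 for D30 against D22 and -0.34 ± 0.14, adjusted p = 0.180 for D30 against D25. The call against D22 was lost when D22 replicate 5 was left out, and also with the compared timepoints alone, with adjusted p between 4.59e-05 and 0.0204 over the 31 alternatives tried. Fen1, the flap endonuclease, had 23.1, 29.6 and 34.7 normalized CPM at D20, 17.8, 21.4 and 23.7 at D22 and 17.7, 21.9 and 23.4 at D30, with 1 D20 MRO inside the later ranges. Its log2 fold change was -0.47 ± 0.12, adjusted p = 0.0155 at D22 and -0.47 ± 0.12, adjusted p = 0.00172 at D30, both against D20. A call at D22 was gained when D20 replicate 4 was left out, and also with DESeq2, with adjusted p between 0.00375 and 0.0669 over the 31 alternatives tried. The D30 call was lost without a filter (adjusted p = 0.0114). Of the exon bases of Fen1, 84.2% lie within Gm10143 and Tmem258 on the opposite strand, and how reads there were counted was not tested. Rnaseh2a, which removes RNA primers, was not called in any comparison.

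Chromatin assembly factor 1 places histones on new DNA, and 2 of its subunits are members. Chaf1a had 18.7, 23.6 and 25.9 normalized CPM at D20, 10.7, 17.2 and 19.3 at D22 and 8.63, 12.4 and 16.1 at D30. D30 lay below D20 without overlap, with a log2 fold change of -0.89 ± 0.17, adjusted p = 1.02e-04 against D20 and of -0.44 ± 0.17, adjusted p = 0.0455 against D22, and the latter passed with annotated genes alone. Of its exon bases, 52.5% lie within Ubxn6 on the opposite strand, and how reads there were counted was not tested. Chaf1b had 3.30, 5.69 and 6.43 at D20 and 0.942, 2.23 and 4.57 at D30, with overlap, and its D30 against D20 log2 fold change was -1.05 ± 0.33, adjusted p = 0.0131. A call was gained when D20 replicate 4 or D25 replicate 2 or D30 replicate 1 was left out, and also with annotated genes alone, with adjusted p between 0.00306 and 0.0339 over the 31 alternatives tried.

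**Figure D3:**
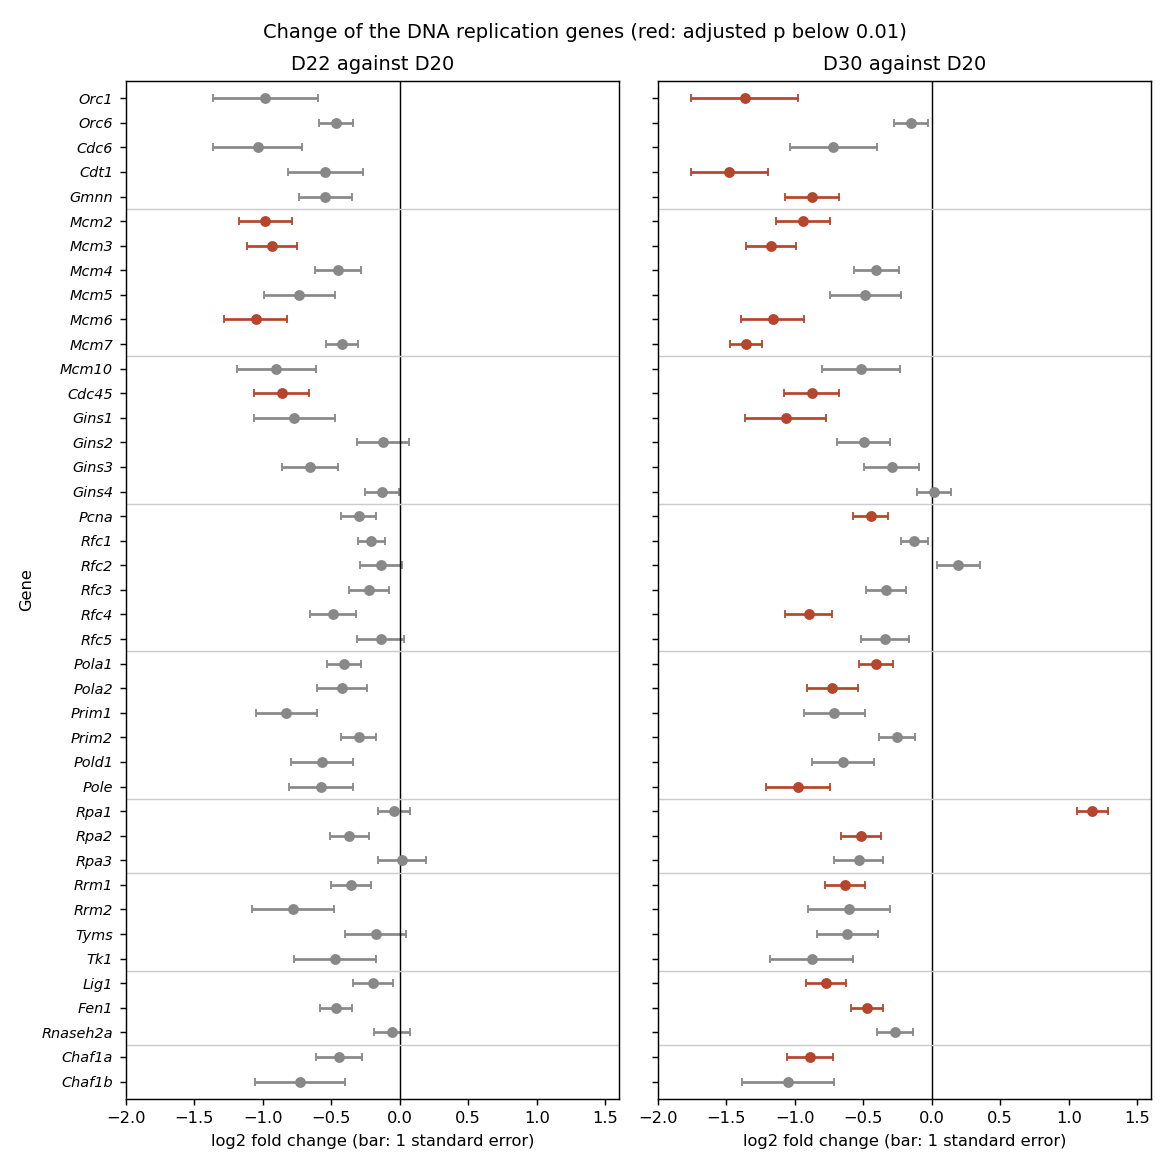
Log2 fold change of each of the 41 genes (rows, in the order of their roles, grey lines between roles) for D22 against D20 and for D30 against D20, with bars of 1 standard error and in red the genes with an adjusted p below 0.01. Red points lie to the left of 0, 4 at D22 and 19 at D30, except for Rpa1 at D30.

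The medians over the members of a role put these changes side by side. At D22 against D20 the median log2 fold change was -0.83 for the MCM2-7 ring, -0.71 for helicase activation, -0.59 for chromatin assembly, -0.54 for licensing, -0.49 for polymerases and primase and -0.41 for nucleotide supply. It was -0.22 for the clamp and its loader, -0.19 for Okazaki fragment maturation and -0.04 for RPA. At D30 against D20 the medians were -1.05 for the MCM2-7 ring, -0.97 for chromatin assembly, -0.88 for licensing, -0.68 for polymerases and primase, -0.63 for nucleotide supply, -0.52 for RPA, -0.51 for helicase activation, -0.47 for Okazaki fragment maturation and -0.34 for the clamp and its loader. In both comparisons the licensing median is the value of Gmnn, the inhibitor of Cdt1. Differences between roles were not tested.

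Single MROs of a timepoint differed across many genes at once. At D20, replicate 4 was the lowest of the 6 in 20 of the 41 genes, where it was the lowest in 12.7% of all tested features. Replicate 6 of D20 was the highest in 16 of 41 (17.05% of features). At D25, replicate 3 was the highest of the 6 in 30 of the 41 genes, where it was the highest in 13.8% of all tested features, and replicate 2 was the lowest in 27 of 41, where it was the lowest in 21.9% of features. The same 2 MROs held the ends of the mitosis list at D25, whose summed level was 1708 normalized CPM in replicate 3 and 383.7 in replicate 2. At D22, replicate 5 was the highest in 24 of 28 mitosis genes and in 13 of 41 replication genes, where it was so in 18.4% of features, and replicate 2 was the highest in 11 of 41 (19.7% of features). At D30, replicate 1 was the highest in 21 of 28 and in 18 of 41 (16.8% of features). It also had the highest D30 sums of Müller glia (4970), oligodendrocyte lineage (146.9) and retinal progenitor markers (617.5) and the lowest of photoreceptor markers (9333 summed normalized CPM). Replicate 5 of D30 was the highest in 13 of 41 (16.21% of features), and replicate 3 the lowest in 16 of 41 (9.7%).

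**Figure D4:**
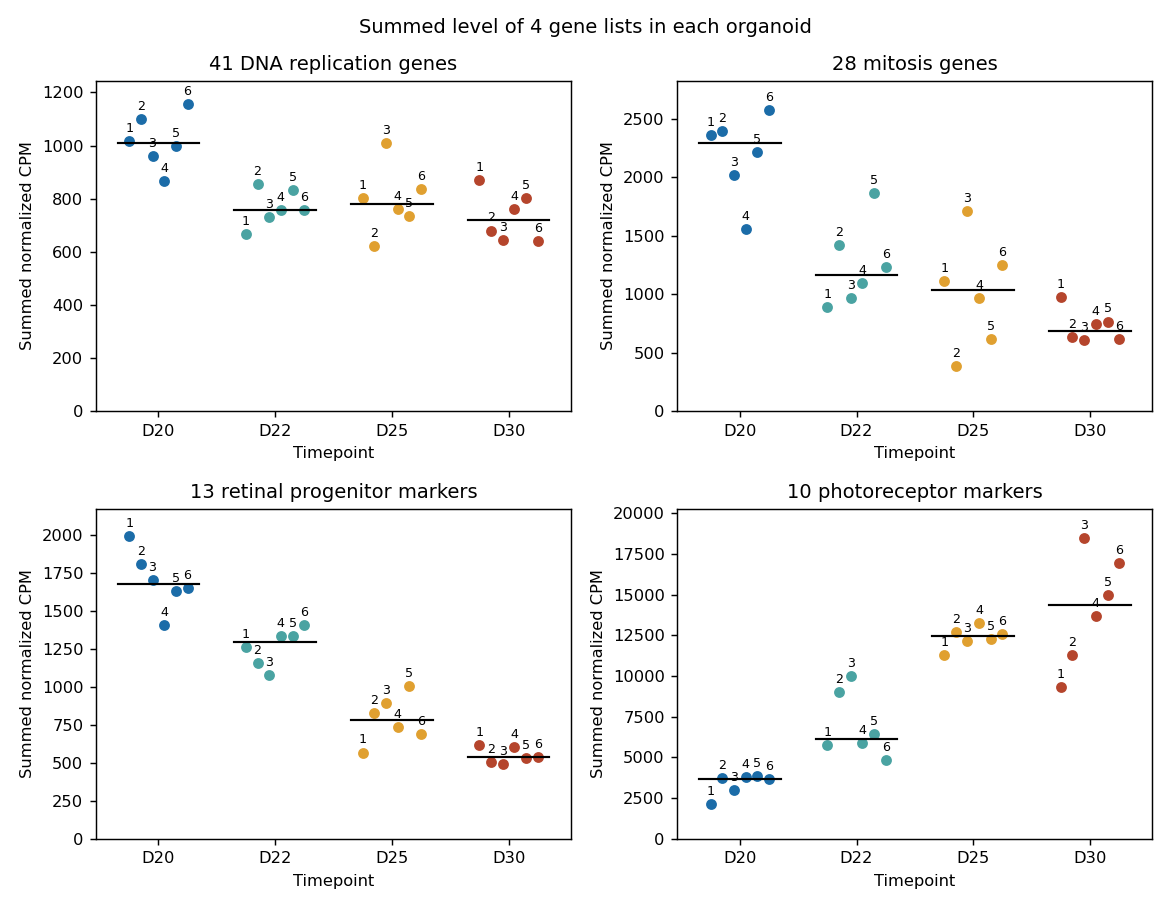
Summed normalized CPM of the 41 replication genes, 28 mitosis genes, 13 retinal progenitor markers and 10 photoreceptor markers in each MRO (points with the replicate number, 6 per timepoint, with a line at the median). The replication sums at D22 lie between 668.1 and 854.3, below the D20 range, and the mitosis sums spread from 383.7 to 1708 at D25.

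Other genes were looked up from lists, whose counts at D30 against D20, here and below, stand beside 16.7% of annotated genes called lower and 25.1% called higher. Of 40 further replication genes, 4 were lower at D22 and 19 at D30, each against D20, none was higher, and the median log2 fold change at D30 was -0.46. At D22 against D20, 0.763% of annotated genes were called lower. None higher at D30 was also the DESeq2 count, and 25 of the 40 had an unadjusted p below 0.05. Dbf4, the activator of the kinase Cdc7 that fires origins, had a mean of 80.2 ± 5.85 (SD, n = 6) normalized CPM at D20 and 15.1 ± 1.21 at D30, and its log2 fold change was -2.41 ± 0.15, adjusted p = 9.99e-14. Topbp1, Slbp and Atad5 followed, and the most abundant gene of the list was Orc4. Of 19 genes of E2F and S phase control, 9 were lower and 2 higher at D30 against D20, with a median of -0.46. E2f1, an E2F factor that activates S phase genes, had a mean of 44.0 ± 6.75 normalized CPM at D20 and 5.01 ± 1.45 at D30, and its log2 fold change was -3.14 ± 0.20, adjusted p = 1.11e-13. Tfdp2, Cdc25a and E2f2 came next, all lower.

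Mitosis genes give a second view of dividing cells. Their sum had lowest, median and highest values of 1558, 2289 and 2578 summed normalized CPM at D20, 891, 1160 and 1864 at D22, 384, 1038 and 1708 at D25 and 604, 687 and 975 at D30. At D30 against D20, 27 of 28 were lower, with Mad2l1 as the exception, and the median log2 fold change was -1.53, beside -0.62 for the replication genes. This difference between the lists was not tested. At D22 against D20 none passed in edgeR on all 24 MROs, while 26 had an unadjusted p below 0.05, and the median was -0.84. DESeq2 called 8 lower in that comparison, where it called 3.42% of all features in either direction. Kif23 (-1.95 ± 0.25, adjusted p = 1.98e-07), Cenpf (-1.79 ± 0.25, adjusted p = 8.89e-07), Mki67 (-1.75 ± 0.25, adjusted p = 1.09e-06) and Anln (-1.60 ± 0.23, adjusted p = 1.45e-06) had the smallest adjusted p at D30 against D20, and Top2a was the most abundant.

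Markers of retinal cell types moved over the same days. Of 13 retinal progenitor markers, 11 were lower at D30 against D20, Ccnd1, Six3 and Notch1 among them, and their sum was 1409, 1678 and 1995 summed normalized CPM at D20, 1076, 1296 and 1410 at D22, 568, 782 and 1003 at D25 and 495, 536 and 618 at D30 (lowest, median, highest), with Pax6 the most abundant. Of 10 photoreceptor markers, 9 were higher, with Rcvrn, Gnat1, Prph2 and Sag first, and the sum was 2118, 3698 and 3871 summed normalized CPM at D20, 4826, 6156 and 9969 at D22, 11290, 12440 and 13250 at D25 and 9333, 14340 and 18490 at D30, with Pdc the most abundant. Of 10 Müller glia markers, 6 were higher and 2 lower, with Slc1a3, Apoe, Clu and Rlbp1 first, and the sum was 1283, 1467 and 1714 summed normalized CPM at D20, 1076, 1178 and 1347 at D22, 1200, 1330 and 1669 at D25 and 1700, 3060 and 4970 at D30, with Apoe the most abundant. In these 3 lists Gnat1 alone had 0 counts in some MRO, at D20. The part of these cell types in the replication results was not tested.

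Markers of cells outside the neural retina were measured as well. Of 9 pigment epithelium markers, 7 passed the filter and 3 were higher and 1 lower at D30 against D20 (Rlbp1, which is also a Müller glia marker, Dct, Ttr and Mitf), and the sum was 166, 198 and 269.8 summed normalized CPM at D20, 182, 248 and 369.8 at D22, 157, 442 and 781 at D25 and 189.6, 556 and 2842 at D30, with Ttr the most abundant. Rpe65, which had 0 counts in all D20 MROs, and Best1 did not pass the filter. Of 7 fibroblast and mesenchyme markers, 6 passed the filter and 5 were higher (Pdgfra, Col1a2, Dcn and Col3a1 first), with sums of 9.34, 14.2 and 29.6 summed normalized CPM at D20, 8.40, 19.9 and 27.9 at D22, 17.1, 56.1 and 163 at D25 and 66.7, 147 and 294 at D30 and Pdgfra the most abundant, and Twist1 did not pass the filter. Of 7 oligodendrocyte lineage markers, 6 passed the filter, 3 were higher and 2 lower (Olig1, Mbp and Sox10 among the 5), with sums of 81.9, 82.4 and 102 summed normalized CPM at D20, 64.0, 65.9 and 69.4 at D22, 45.8, 46.9 and 60.2 at D25 and 26.4, 60.2 and 147 at D30 and Mbp the most abundant, and Mag did not pass the filter.

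Of 5 cortex neuron markers, 1 was higher at D30 against D20 (Emx2) and all 5 at D30 against D22, where 23.95% of annotated genes were called higher. Their sums were 4.55, 27.6 and 170.4 summed normalized CPM at D20, 1.55, 7.28 and 14.4 at D22, 6.07, 82.1 and 233 at D25 and 7.98, 149 and 216 at D30. Neurod6, which amacrine cells of the retina express as well, was the most abundant. The 5 pluripotent cell markers summed to at most 1.959 normalized CPM in any MRO. Pou5f1, the 1 that passed the filter, was lower at D30 against D20, and Nanog, Zfp42, Dppa5a and Tdgf1 did not pass it. The 6 blood and endothelial markers summed to at most 1.995. Pecam1, the 1 that passed the filter, was higher, Hbb-bs had 0 counts in all 24 MROs, and Ptprc, Aif1, Cx3cr1 and Cdh5 did not pass it. The part of any of these lists in the replication results was not tested.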

How the data were processed

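The deposited values are raw counts: the authors made them with bcl2fastq 2.20, cutadapt 1.5, FastQC 0.11.2, HISAT2, SAMtools 1.1, StringTie 1.3.3 for loci outside the annotation and HTSeq 0.6.1 for counting reads per feature. The counting strand is not stated. The 5 summary lines of each count file were left out: per MRO they hold 10204059 to 15281280 reads on no feature, 1707952 to 2613152 not aligned and 12828991 to 29554121 alignments that were not unique, while reads on more than 1 feature made up 0.814% to 1.18% of these and the counted reads together.

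Features with a mean of at least 10 counts after DESeq2 scaling were kept. In R 4.3.3, edgeR 4.0.16 (TMM factors, quasi-likelihood fit on all 24 MROs, common biological coefficient of variation 0.385) gave log2 fold changes with standard errors and p-values, adjusted by Benjamini-Hochberg over all 46949 features, with calls at 0.01. DESeq2 1.42.0 was the other tool, with limma 3.58.1 loaded by edgeR. The pipeline was tested on simulated data. Figures were drawn with matplotlib 3.10.9 in Python 3.11.15.

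Alternatives were DESeq2, its size factors in edgeR, no filter, filterByExpr, annotated genes alone, the replicate number as a block, the compared timepoints alone, each MRO left out in turn, and the list without 3 genes that lie mostly within another gene. Fold changes with standard error and adjusted p were given for genes with an adjusted p below 0.01 in a comparison and up to 3 with the next smallest, and always for Pcna and Mcm6. In the other lists (further replication genes, E2F and S phase control, mitosis, and markers of retinal progenitors, Müller glia, photoreceptors, pigment epithelium, fibroblasts and mesenchyme, oligodendrocyte lineage, cortex neurons, pluripotent cells, and blood and endothelium) up to 4 genes with the smallest adjusted p for D30 against D20 were named, beside the most abundant one. Of these, 2 genes are not reported here, while the counts of genes and the sums of their lists include them. The 41 genes and all lists were chosen with earlier results of these data known. Levels per kilobase used the union of exon bases in GENCODE release M21, so that comparisons between genes depend on which exons are annotated. Libraries of the same timepoint were checked for repeats, and none was found.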

Additional observations from a re-analysis of the deposited data

Results flagged for a closer look

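The level of each of the 41 genes and the summed level were compared within each timepoint, which made 168 groups of 6 MROs. In 9 of them the MRO at one end stood apart, by a gap whose share of the whole range exceeded Dixon's critical value at 95%, 6 at the high end and 3 at the low end. Chance gives such a gap in about 1 in 20 groups. The sum over the 41 genes showed none at any timepoint.

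Orc1 in D25 replicate 5 was above the next MRO, at 1.07 against 0.549 normalized CPM, a gap of 0.722 of the range. Cdc6 in D22 replicate 2 was above the next MRO, at 4.96 against 2.33 normalized CPM, a gap of 0.690 of the range. Mcm3 in D20 replicate 1 was above the next MRO, at 41.2 against 33.1 normalized CPM, a gap of 0.8 of the range. Mcm4 in D22 replicate 2 was above the next MRO, at 28.4 against 16.1 normalized CPM, a gap of 0.842 of the range. Mcm4 in D30 replicate 1 was above the next MRO, at 25.0 against 18.1 normalized CPM, a gap of 0.766 of the range. Gins1 in D22 replicate 5 was below the next MRO, at 2.52 against 3.84 normalized CPM, a gap of 0.640 of the range. Rfc5 in D20 replicate 4 was below the next MRO, at 7.52 against 10.2 normalized CPM, a gap of 0.652 of the range. Pold1 in D30 replicate 5 was above the next MRO, at 7.18 against 4.68 normalized CPM, a gap of 0.639 of the range. Chaf1a in D22 replicate 1 was below the next MRO, at 10.7 against 16.6 normalized CPM, a gap of 0.681 of the range.

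Rpa1 differed between the steps: its change from D20 to D22 minus its change from D22 to D30 was -1.25 (log2, adjusted p = 1.23e-04 in edgeR). Every D30 MRO lay above every D22 MRO, and the levels at D20 and D22 overlapped.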

How the results depend on the processing

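The number of replication genes called moved by more than 1.5 times its reported value in the following settings. With annotated genes alone, 2 were called for D25 against D22 (reported 1), 7 for D30 against D22 (reported 3) and 2 for the step difference (reported 1). Of the features tested in that setting, 12.26%, 37.97% and 11.03% were called in the same order. For D30 against D25 (reported 2), 1 was called without a filter, 1 with filterByExpr, 1 with the replicate block and 1 with the compared timepoints alone. DESeq2 called 2 for the step difference, beside 7.55% of features called in that setting. The cause was not tested. D30 against D20 gave between 15 (no filter) and 27 (annotated genes alone), beside 20 as reported. Of the features tested in each, 12.35%, 44.98% and 26.8% were called in the same order. The median log2 fold change of the list moved by more than 1.5 times in some settings: for D30 against D22 (reported -0.15) it was -0.28 with annotated genes alone and -0.07 with DESeq2 or its size factors, for D25 against D22 (reported 0.08) it was -0.00 with annotated genes alone, and for the step difference (-0.35 in edgeR) it was -0.15 with annotated genes alone.

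The replicate block gave 3 genes called for D22 against D20, 1 for D25 against D22, 1 for D30 against D25, 3 for D30 against D22, 17 for D30 against D20 and 1 for the step difference. The numbers do not pair MROs in the data: over 36 pairs of MROs with the same number, r across genes ranged from -0.217 to 0.391 with a median of -0.0187, and 4 of 24 MROs were most alike to one of their own number.

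Leaving out each MRO in turn gave 2 to 5 genes called for D22 against D20 (2 without D20 replicate 1, 2, 3 or 6, or D22 replicate 1, 3 or 4), 1 for D25 against D22 throughout, 1 to 2 for D30 against D25 (1 without D25 replicate 1, 2, 5 or 6, or D30 replicate 1 or 5), 2 to 4 for D30 against D22, 15 to 22 for D30 against D20 and 1 for the step difference throughout. The medians ranged from -0.50 to -0.42, 0.05 to 0.13, -0.32 to -0.11, -0.18 to -0.07 and -0.66 to -0.55 in the same order of comparisons, where -0.11 for D30 against D25 came without D25 replicate 3. The number called halved in 7 of the 24 omissions for D22 against D20 and in 6 of 24 for D30 against D25.

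Without Gins2, Fen1 and Chaf1a, which lie mostly within other genes, 18 genes were called for D30 against D20, an alternative chosen after seeing the data. No called gene changed direction in the alternatives run, 31 for each comparison of timepoints and 30 for the step difference. Estimates that were not called changed sign for Mcm6 at D30 against D22 (-0.32 to 0.01), for Pcna at D25 against D22 (-0.06 to 0.10) and for Pcna in the step difference (-0.29 to 0.04), among the 58 gene results followed.

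These data come from 1 independent experiment, so that differences between experiments were not measured. Timepoints are confounded with anything else that differed between the days of lysis, and these cannot be told apart. Reads that align to several places are missing from the counts, which touches genes that share sequence with others.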
